A study of Mus musculus with 6 samples.

Results

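The mitochondrial protein import machinery is the set of translocases, chaperones and processing enzymes that carry proteins made in the cytosol into mitochondria. Its 35 genes were chosen by name from the 14956 genes listed: every gene called Tomm or Timm followed by a number, and Dnajc19, Pam16, Grpel1, Grpel2, Hspa9, Pmpca, Pmpcb, Samm50, Mtx1, Mtx2, Chchd4 and Gfer. All 35 reached a mean of at least 1 FPKM, the filter for testing, as did 11096 genes in all. RNA was measured in the hearts of 3 mice heterozygous for an Otub1 knockout (Otub1 +/-, Het for short) and of 3 wild-type mice (Otub1 +/+, WT). All 6 mice had received doxorubicin, an anthracycline chemotherapy drug that injures the heart, in 6 injections over 2 weeks, so no untreated heart serves as a baseline. Each library is 1 heart, and libraries are called Het 1 to Het 3 and WT 1 to WT 3. Strain, sex, age and the way the Otub1 allele was made are not given in the sources used here. OTUB1 is a deubiquitinase, an enzyme that removes ubiquitin from proteins. The comparison is thus between genotypes under the drug.

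Nearly all mitochondrial proteins are encoded in the nucleus and enter through the TOM complex of the outer membrane, whose pore is Tomm40. From there the SAM complex inserts barrel-shaped outer membrane proteins, the MIA pathway traps cysteine-rich proteins in the intermembrane space by oxidising them, and small TIM chaperones escort hydrophobic carriers to the TIM22 complex. Proteins with a cleavable presequence pass through the TIM23 complex and are pulled into the matrix by the PAM motor, where the processing peptidase MPP removes the presequence. Heart muscle cells are densely packed with mitochondria and depend on this route for their respiratory chain.

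The promoters of 4 members are shown because these genes carry the results below: Tomm5 had the smallest p of all members, Timm10 and Mtx2 were lower in every Het heart, and Timm29 was the member that lay higher in Het 2 and Het 3. Each runs 5′ to 3′ from 250 bases before the transcript start to 50 bases after it, from RefSeq on GRCm38.p6, and capitals mark CCGGAAG or its reverse complement CTTCCGG, the core bound by GABP and other ETS factors. The intervals are chr4:45108064-45108363 (minus strand) for Tomm5, chr2:84826771-84827070 (plus) for Timm10, chr2:74825562-74825861 (plus) for Mtx2 and chr9:21592472-21592771 (plus) for Timm29.
Tomm5: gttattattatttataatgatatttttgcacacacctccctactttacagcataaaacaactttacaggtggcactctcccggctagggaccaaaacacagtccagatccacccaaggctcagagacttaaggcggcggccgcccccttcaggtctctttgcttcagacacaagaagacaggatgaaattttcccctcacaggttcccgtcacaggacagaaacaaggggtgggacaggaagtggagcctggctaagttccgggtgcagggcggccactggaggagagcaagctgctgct
Timm10: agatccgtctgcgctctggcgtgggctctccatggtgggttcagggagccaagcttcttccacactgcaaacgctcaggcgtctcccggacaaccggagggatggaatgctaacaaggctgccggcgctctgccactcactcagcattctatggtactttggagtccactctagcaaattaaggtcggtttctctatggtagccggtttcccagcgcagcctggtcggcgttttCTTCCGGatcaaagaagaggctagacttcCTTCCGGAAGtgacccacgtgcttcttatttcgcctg
Mtx2: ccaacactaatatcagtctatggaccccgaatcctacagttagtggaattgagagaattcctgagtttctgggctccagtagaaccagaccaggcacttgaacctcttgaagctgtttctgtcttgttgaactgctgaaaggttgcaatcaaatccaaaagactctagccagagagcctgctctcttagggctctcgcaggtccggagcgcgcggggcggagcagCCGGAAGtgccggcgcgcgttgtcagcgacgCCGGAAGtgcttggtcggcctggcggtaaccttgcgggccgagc
Timm29: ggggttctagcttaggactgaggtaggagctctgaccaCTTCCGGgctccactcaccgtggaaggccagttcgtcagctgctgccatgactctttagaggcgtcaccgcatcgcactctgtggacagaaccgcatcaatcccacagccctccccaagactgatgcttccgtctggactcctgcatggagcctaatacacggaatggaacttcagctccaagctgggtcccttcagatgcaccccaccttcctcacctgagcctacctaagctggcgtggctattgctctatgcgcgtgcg
The core stood 3 times in the Timm10 window, 2 of them overlapping, 2 times in that of Mtx2, once in that of Timm29 and not in that of Tomm5.

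RefSeq promoters were matched for 30 of the 35 members, with 32 windows in all. The letters CCGGAAG, on either strand, occurred in 14 of 32 member windows (43.8%) and in 8.86% of 32851 promoter windows of the same length. Those 32851 windows were not limited to genes expressed in these hearts, as the members are. The shares among the genes tested were not computed. Of 8 motifs searched on both strands, the GC box GGGCGG occurred in 62.5% of member windows and 35.7% of all. The NRF1 core, GCGCA, any base and GCGC, occurred in 12.5% and 4.60%, and AAGGTCA, bound by oestrogen-related receptors, in 9.38% and 4.72%. The YY1 core AAGATGGCG stood in 6.25% and 1.40%, the E-box CACGTG in 12.5% and 7.15%, CCAAT in 28.1% and 37.4%, and TATAAA in 9.38% and 13.6%. Of the 14 matched genes that were lower in every Het heart, 5 held CCGGAAG, against 8 of the other 16. For the E-box these counts were 4 and 0, for YY1 2 and 0, for NRF1 2 and 2, for AAGGTCA 1 and 2, for CCAAT 5 and 4, for TATAAA 1 and 2 and for the GC box 10 and 9. Promoters with the ETS core were therefore found among members on either side of that division, Timm10 and Mtx2 on one and Timm29 on the other. A match is a string of letters and no measured binding site.

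Otub1 was lower in every Het heart. The Het hearts 1, 2 and 3 held 4.83, 6.48 and 6.65 FPKM, against 15.4, 14.9 and 14.2 FPKM in WT 1, 2 and 3, which puts the Het mean at 40.4% of the WT mean (exact two-sided permutation p = 0.1, the smallest that 3 mice against 3 allow). On the log2(FPKM + 1) scale its difference was -1.19 (SE 0.19), with an adjusted limma p of 0.376 over all genes tested and of 0.0129 without Het 1. FPKM is the number of fragments scaled by transcript length and by all mapped fragments. Absolute depth is unknown, so the error given comes from the spread between mice, which limma moderates by that of all genes tested.

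Het 1 stood apart from the other libraries, and the main results are therefore given with and without it. Its correlation with the others across genes was 0.844 to 0.887, against 0.966 to 0.987 among the other 5. Mitochondrially encoded transcripts made up 65.0% of its summed FPKM, against 54.8% and 56.1% in Het 2 and Het 3 and 51.5% to 54.0% in WT. The median gene of Het 1 lay 0.45 below the WT mean on the log2(FPKM + 1) scale, against 0.03 and 0.04 below it in Het 2 and Het 3. All 12 cardiomyocyte markers were present in every library, and their summed level was 10863 FPKM in Het 1, 22724 and 22483 FPKM in the other Het hearts, and 24651 to 26958 FPKM in WT. In Het 1 all but Nppa were below every WT heart, by unequal amounts. Atp2a2 was at 165 FPKM, against 1277 to 1921 FPKM in WT, and Tnni3 at 1099.9 FPKM, against 1134 to 1257 FPKM. Nppa, at 229.7 FPKM, lay within the WT range of 109.6 to 380.0 FPKM. Of 10 lung epithelial markers none was at 0 in Het 3. Without Hopx, which heart muscle also expresses, the other 9 summed to 0.445, 0.520 and 862 FPKM in Het 1, 2 and 3 and to 0.918 to 1.07 FPKM in WT. Sftpc and Scgb1a1, which define these cells, stood at 261 and 476 FPKM in Het 3. In the other libraries 4 to 8 of the 10 were at 0, Scgb1a1 in all of them and Sftpc in all but WT 1. The sum of 11 listed hepatocyte markers was 2.61, 46.1 and 2.04 FPKM in Het 1, 2 and 3 and 127 to 184 FPKM in WT. Erythroid markers summed to 5705, 2404 and 680.2 FPKM in Het 1, 2 and 3 and 1006 to 1395 FPKM in WT. Macrophage markers summed to 148, 160.0 and 251 FPKM in Het 1, 2 and 3 and 130.4 to 147 FPKM in WT, but each single marker overlapped between genotypes. Lyz2 made up 168 FPKM of the sum in Het 3. It was at 44.6 and 49.3 FPKM in Het 1 and Het 2, below the WT range of 55.2 to 58.9 FPKM. Interferon response genes summed to 358, 304 and 33.0 FPKM in Het 1, 2 and 3 and 27.9 to 34.8 FPKM in WT. The part of these differences in the results below was not tested. In whole hearts, fewer cells of a type and less RNA per cell cannot be told apart.

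The mean of nearly all import machinery transcripts was lower in Het than in WT hearts, but most members overlapped between genotypes and no single member passed the test. The summed level of the 35 genes was 246, 579 and 532 FPKM in Het 1, 2 and 3, against 628, 574 and 618 FPKM in WT 1, 2 and 3. The difference of the means was below 0 on the log2(FPKM + 1) scale for 34 of 35 members, Tomm34 being the exception, and 76.6% of all genes tested were also below 0. In 15 of 35 members (42.9%) every Het heart was lower than every WT heart, which held for 15.6% of all genes tested. No member was higher in every Het heart, against 1.83% of all genes. In limma's test, adjusted over 11096 genes, 0 of 35 members had an adjusted p under 0.05 in either direction. Of all genes 0.018% were lower and 0.0% higher by that rule. With the unadjusted p under 0.05, 2 members lay lower (Tomm5 and Timm8a1), against 3.08% of all genes, and 0 were higher, against 0.802% of all genes. The authors' deposited table likewise lists 0 members with an adjusted p under 0.05, the lowest being 0.105 for Tomm5, and lists 0.241% of its genes as lower and 0.776% as higher by that rule.

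The median log2 difference over the 35 members was -0.44, against -0.18 over all genes tested. By library, the members' median relative to the median gene was -0.40, -0.08 and -0.20 in Het 1, 2 and 3, and 0.03, -0.01 and -0.01 in WT 1, 2 and 3. Each WT library is itself part of the WT mean it was set against, which draws its values closer to that mean. The WT values thus understate the spread between WT hearts. Without Het 1 the members' median was -0.19, against -0.04 over all genes, and 30 of 35 members were below 0, against 58.3% of all genes. In that comparison 10 members (28.6%) lay lower with an unadjusted limma p under 0.05, against 9.41% of all genes, and 1 was higher (Timm29), against 2.97%. None of these passed over all genes, the lowest adjusted limma p being 0.167 for Tomm5, while 0.0451% of all genes were lower and 0.027% higher by that rule. The groups were apart and lower in Het for 17 members (48.6%), against 21.8% of all genes, and apart and higher for 1, against 10.9%. The order of the members changed with Het 1, as the difference plot by complex shows: Mtx2 and Grpel1 had the lowest differences with it, Tomm5 and Timm10 without it.

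**Figure D1:**
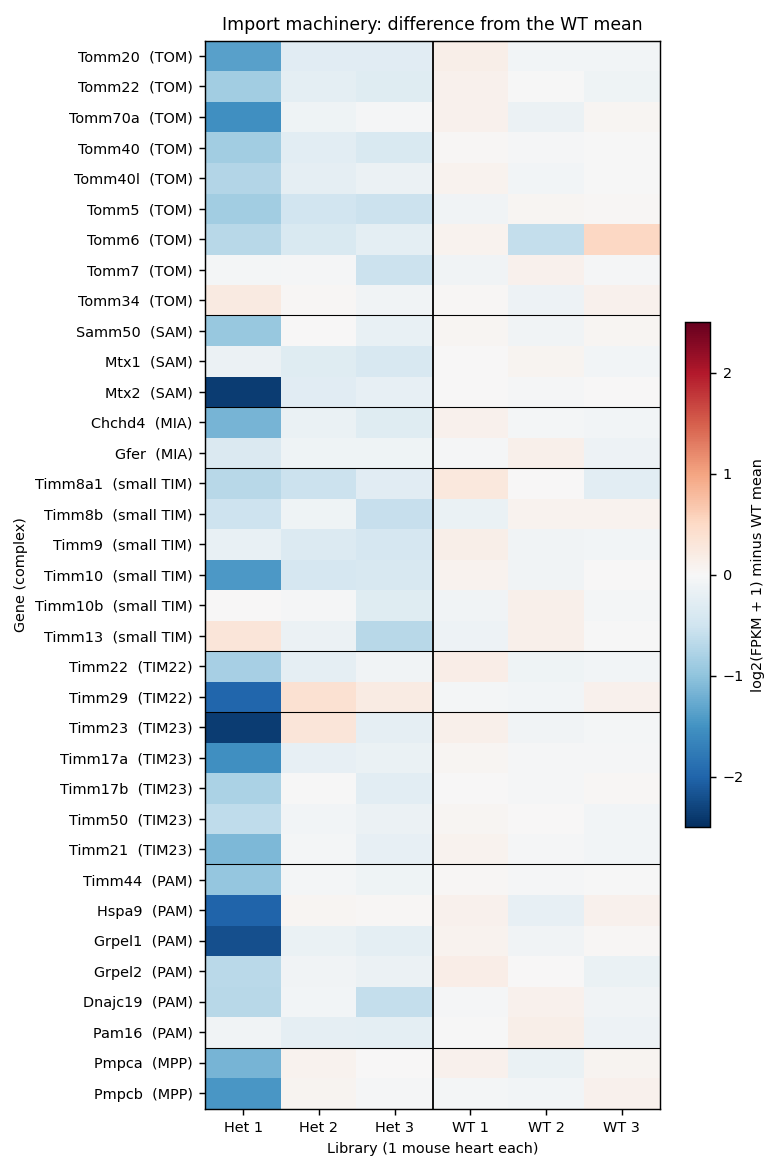
Difference of each of the 35 members from the WT mean on the log2(FPKM + 1) scale (colour) in each library (columns), with members grouped by complex (rows). Het 1 holds the lowest values, such as -2.38 for Mtx2 and -2.37 for Timm23, while Tomm5, Timm10 and Timm9 are below the WT mean in all 3 Het hearts.

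At the entry gate, 9 members were grouped by name under the TOM complex, among them the cytosolic protein Tomm34. Of these 9, 5 did not overlap between genotypes, against 15.6% of all genes tested. They were the receptors Tomm20 and Tomm22, the pore Tomm40, its paralog Tomm40l, and the small subunit Tomm5. Tomm5, a small subunit that stabilises the pore, stood at 18.4, 24.2 and 23.4 FPKM in Het 1, 2 and 3, against 32.3, 35.2 and 34.8 FPKM in WT 1, 2 and 3. All 3 Het hearts lay well below the WT hearts, whose values were close together. The means were 22.0 ± 3.14 FPKM in Het and 34.1 ± 1.58 FPKM in WT (SD, n = 3 each), a Het level 64.5% of that in WT. The log2 difference was -0.62 (SE 0.21), with an unadjusted limma p of 0.021 and an adjusted p of 0.753. Without Het 1 it was -0.50 (SE 0.09), with an unadjusted limma p of 0.000984. Of the 35 members Tomm5 thus had the smallest p with and without Het 1.

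Tomm40, the barrel that forms the import pore, stood at 7.59, 12.1 and 11.0 FPKM in Het, against 15.0, 14.5 and 14.6 FPKM in WT. Its WT values spanned less than 1 FPKM and all Het values lay below them. The log2 difference was -0.51 (SE 0.22, adjusted limma p 0.753), and -0.32 (SE 0.09) without Het 1. Tomm22, the central receptor that links the pore to the other receptors, stood at 13.1, 20.6 and 19.8 FPKM in Het, against 26.7, 24.5 and 22.8 FPKM in WT. Tomm20, which recognises presequences, stood at 4.68, 10.8 and 10.9 FPKM in Het, against 14.9, 12.8 and 12.8 FPKM in WT. Both receptors were lowest in Het 1, and Het 2 and Het 3 held 81.6% of the WT mean for Tomm22 and 80.5% for Tomm20. Tomm40l stood at 6.57, 9.66 and 10.3 FPKM in Het, against 12.2, 10.9 and 11.4 FPKM in WT. Its exons share 3304 of 5135 bases with Nr1i3 on the opposite strand, and since the use of strand in quantification is not given, reads of the 2 genes may be mixed.

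The remaining members grouped under TOM overlapped between genotypes. Tomm70a, the receptor for carriers and other proteins with internal signals, was at 1.81 FPKM in Het 1 but 6.57 and 7.02 FPKM in Het 2 and Het 3, within the WT range of 6.32 to 7.76 FPKM. The small subunit Tomm7 was at 3.20, 3.25 and 2.00 FPKM in Het 1, 2 and 3, against 3.07 to 3.67 FPKM in WT. Tomm6, another small subunit, ranged from 1.97 to 3.08 FPKM in Het and from 2.20 to 5.84 FPKM in WT. Of its 1131 exonic bases 859 are shared with Gm21981 on the same strand, so its level is uncertain. Tomm34, which despite its name is a cytosolic co-chaperone, was at 4.38 to 5.63 FPKM in the Het hearts and 4.25 to 5.10 FPKM in the WT hearts.

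**Figure D2:**
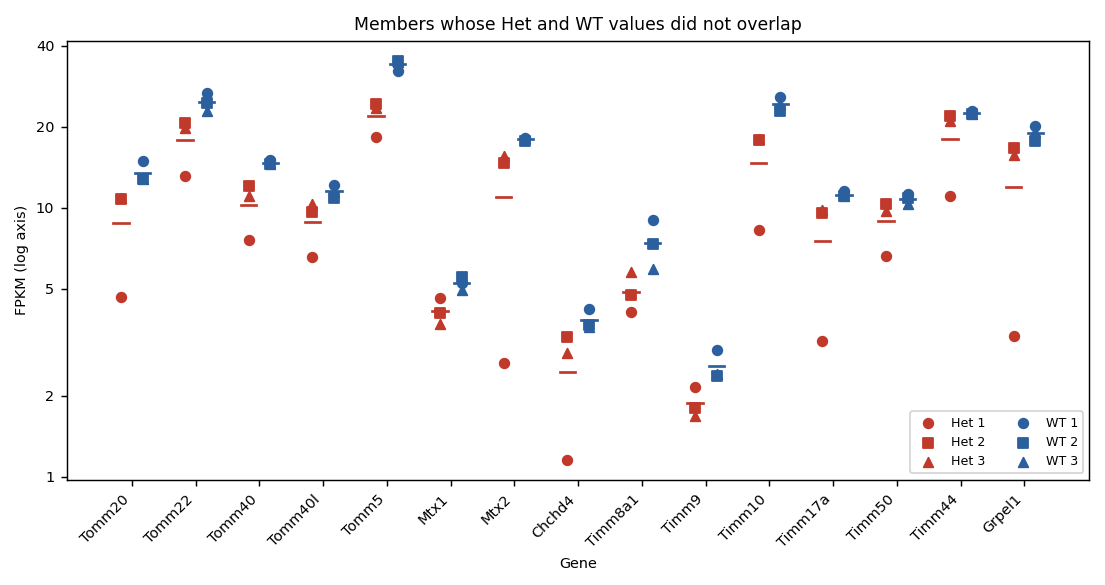
FPKM (log axis) of the 15 members whose Het and WT values did not overlap, with Het (red) left of WT (blue), one symbol per library and a bar at each group mean. Mtx2, Grpel1 and Timm17a have 1 Het heart far below the others, Het 1, whereas Mtx1 and Timm9 have Het 1 as the highest of the 3 Het hearts.

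In the SAM complex both metaxins were lower in every Het heart, but in different hearts most. Mtx2 stood at 2.65, 14.7 and 15.6 FPKM in Het, against 18.2, 17.7 and 18.1 FPKM in WT. Het 1 held 14.7% of the WT mean, while Het 2 and Het 3 held 84.0%. Its log2 difference was -0.95 (SE 0.58, unadjusted limma p 0.148), and -0.24 (SE 0.08, unadjusted limma p 0.026) without Het 1. In Mtx1 Het 1 was instead the highest of the Het hearts, at 4.64, 4.07 and 3.69 FPKM in Het 1, 2 and 3, against 5.26, 5.52 and 4.96 FPKM in WT. Its log2 difference was -0.29 (SE 0.15), and -0.36 (SE 0.09) without Het 1. Exons of Mtx1 overlap Thbs3 and Gm43737 on the opposite strand. Samm50, the barrel that does the inserting, was at 13.7, 27.5 and 23.8 FPKM in Het 1, 2 and 3, against 25.7 to 28.1 FPKM in WT.

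Within the intermembrane space, Chchd4 (MIA40 in yeast), the oxidoreductase that traps imported cysteine proteins, stood at 1.16, 3.30 and 2.88 FPKM in Het, against 4.21, 3.68 and 3.62 FPKM in WT. The groups did not overlap, and Het 1 was lowest (log2 difference -0.55, SE 0.27, adjusted limma p 0.753). Without Het 1 the difference was -0.24 (SE 0.10). Gfer, the sulfhydryl oxidase that recharges Chchd4, overlapped, at 2.78 to 3.58 FPKM in the Het hearts and 3.52 to 4.37 FPKM in the WT hearts.

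For the small TIM chaperones the median log2 difference over the 6 genes was -0.36 with all libraries and -0.40 without Het 1. In the latter comparison 4 of 6 were lower with an unadjusted limma p under 0.05, against 9.41% of all genes. That count is from values not centred by length. Centred on genes of like length, the difference without Het 1 was -0.31 (SE 0.184) for Timm8a1, against -0.41 uncentred. It was also -0.31 (SE 0.15) for Timm13, against -0.41, and -0.35 for Timm9, against -0.39. Timm10, which forms a ring with Timm9, stood at 8.27, 17.9 and 18.0 FPKM in Het, against 25.7, 22.8 and 24.3 FPKM in WT. Its log2 difference was -0.76 (SE 0.32, unadjusted limma p 0.0518), and -0.42 (SE 0.09, unadjusted limma p 0.00303) without Het 1. Its transcript is among the shortest, and centred on genes of like length the difference without Het 1 was -0.25 (SE 0.0983). Timm9 stood at 2.15, 1.80 and 1.68 FPKM in Het, against 2.96, 2.38 and 2.41 FPKM in WT. These partners are expressed at different levels, Timm10 well above Timm9 per length, yet neither overlapped between genotypes.

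Timm8a1, whose human counterpart is mutated in Mohr-Tranebjaerg deafness-dystonia syndrome, stood at 4.10, 4.74 and 5.79 FPKM in Het, against 8.98, 7.34 and 5.90 FPKM in WT. Its groups were separated only by the narrow gap between Het 3 and WT 3 (log2 difference -0.51, SE 0.21, unadjusted limma p 0.0441). Without Het 1 the difference was -0.41 (SE 0.17). Timm13, its partner, was at 11.7 FPKM in Het 1, the highest of the 6 hearts, while Het 2 and Het 3 held 8.32 and 5.38 FPKM, against 8.43 to 10.2 FPKM in WT. Timm8b stood at 21.6, 28.7 and 20.5 FPKM in Het, against 27.8, 33.0 and 33.0 FPKM in WT, and overlapped through Het 2. Timm10b, the small TIM bound to the TIM22 complex, was at 1.71 to 2.38 FPKM in the Het hearts and 2.17 to 2.66 FPKM in the WT hearts.

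For the inner membrane translocases, most of the difference lay in Het 1. Timm23, the channel of the presequence translocase, was at 7.55 FPKM in Het 1 but 53.6 and 36.8 FPKM in Het 2 and Het 3, on either side of the WT range of 40.9 to 47.3 FPKM. Its log2 difference was -0.77 (SE 0.67) with Het 1 and 0.04 (SE 0.17) without it. Timm17a, which lines the channel and has the paralog Timm17b, stood at 3.20, 9.57 and 9.85 FPKM in Het, against 11.5, 11.1 and 11.0 FPKM in WT. Timm50, the receptor of TIM23, stood at 6.62, 10.3 and 9.77 FPKM in Het, against 11.3, 10.9 and 10.3 FPKM in WT, a gap between Het 2 and WT 3 too small to show at this rounding. Timm17b was at 2.88 to 5.73 FPKM in the Het hearts and 5.65 to 5.84 FPKM in the WT hearts, and Timm21 at 3.45 to 8.42 FPKM in the Het hearts and 8.32 to 9.40 FPKM in the WT hearts.

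In the TIM22 complex, which inserts carriers, Timm22 was at 2.70 to 5.21 FPKM in the Het hearts and 5.13 to 6.34 FPKM in the WT hearts. Timm29, its assembly partner, was 1 of 5 members whose difference was above 0 without Het 1, with Timm23, Hspa9, Pmpca and Pmpcb. Its values were 3.49, 22.1 and 19.4 FPKM in Het 1, 2 and 3, against 16.3, 16.2 and 18.1 FPKM in WT, so it was the lowest in Het 1 and the highest in the other Het hearts. Its log2 difference was -0.47 (SE 0.62) with all libraries and 0.29 (SE 0.10, unadjusted limma p 0.0273, adjusted p 0.349) without Het 1.

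On the matrix side, Hspa9 (mortalin), the ATP-driven chaperone of the PAM motor, was the most abundant member at 146 ± 17.5 FPKM in WT (SD, n = 3). It was at 35.2 FPKM in Het 1 but 149 and 147 FPKM in Het 2 and Het 3, within the WT range of 125 to 157 FPKM. Grpel1, the nucleotide exchange factor of Hspa9, stood at 3.34, 16.7 and 15.7 FPKM in Het, against 20.1, 17.7 and 19.2 FPKM in WT. Timm44, which anchors the motor to the channel, stood at 11.1, 21.9 and 21.01 FPKM in Het, against 22.9, 22.3 and 22.4 FPKM in WT. Both were lower in every Het heart, Timm44 by a margin in Het 2 and Het 3 that left them at 95.2% of the WT mean.

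Dnajc19, a J protein of the motor whose human counterpart is mutated in a dilated cardiomyopathy with ataxia, stood at 2.36, 4.18 and 2.59 FPKM in Het, against 4.37, 4.84 and 4.09 FPKM in WT. Het 1 and Het 3 were low and Het 2 lay inside the WT range (log2 difference -0.45, SE 0.20, unadjusted limma p 0.0606). The difference was -0.33 (SE 0.16) without Het 1. Its inhibitory partner Pam16 was at 4.22 to 4.78 FPKM in the Het hearts and 4.62 to 5.78 FPKM in the WT hearts. Grpel2, the paralog of Grpel1, was at 1.31 to 2.47 FPKM in the Het hearts and 2.31 to 3.13 FPKM in the WT hearts. Pmpca and Pmpcb, the subunits of MPP, were at 42.8% and 33.9% of the WT mean in Het 1 but at 103% and 101% in Het 2 and Het 3 together.

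**Figure D3:**
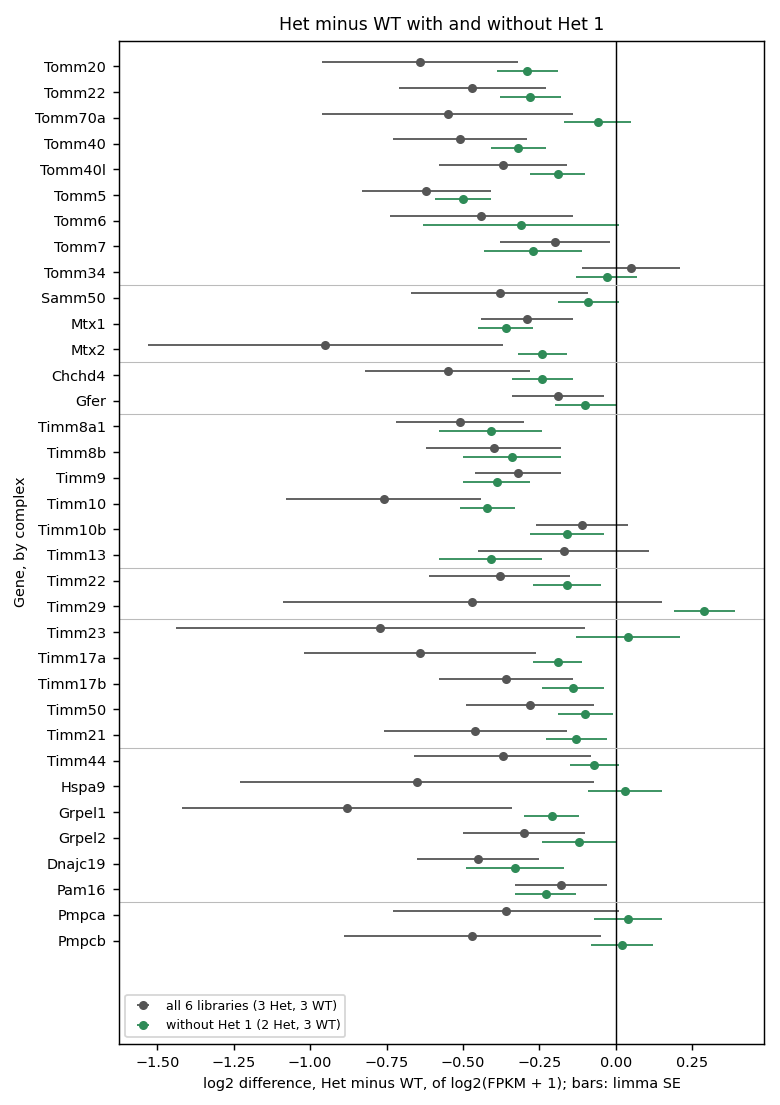
Log2 difference, Het minus WT, of log2(FPKM + 1) for each member with its limma SE, from all 6 libraries (grey) and without Het 1 (green), members ordered by complex. Without Het 1 the SE is smaller for 34 of 35 members, Tomm6 being the exception, and the differences run from -0.50 (Tomm5) to 0.29 (Timm29).

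With Het 1 set aside, the mean of Het 2 and Het 3 was under 80% of the WT mean for 11 members, from 80 to 95% for 16 and at least 95% for 8. The 11 included Tomm5, Tomm40, Mtx1, Dnajc19 and 5 of the 6 small TIMs. The 8 were Tomm70a, Tomm34, Timm29, Timm23, Timm44, Hspa9, Pmpca and Pmpcb. The shares of all genes in these classes were not computed, so these counts describe the members only. In Het 1 17 of 35 members (48.6%) were under 50% of the WT mean, as were 33.8% of all genes tested, and in Het 2 and Het 3 0 were.

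The FPKM ratio of 2 members within 1 library does not depend on how libraries are scaled, and 12 pairs of paralogs or partners were compared. The test was on the difference of their log2(FPKM + 1) values. Because 1 FPKM is added, that difference does depend on scaling where values are low. The groups overlapped for all 12 pairs. Exact two-sided permutation p values lay between 0.2 and 0.9, where 0.1 is the smallest possible, and adjusted p values between 0.75 and 0.9. The exact p values without Het 1 lay between 0.2 and 1.0. Het 1 departed from the others within several pairs. The FPKM ratio of Mtx1 to Mtx2 was 1.75 in Het 1 and 0.278 and 0.237 in Het 2 and Het 3, against 0.289, 0.311 and 0.274 in WT. The ratio of Timm23 to Timm50 was 1.14 in Het 1 and 5.20 and 3.77 in Het 2 and Het 3, against 4.20, 3.74 and 4.07 in WT. Grpel1 over Grpel2 was 2.55 in Het 1 and 6.77 and 6.70 in Het 2 and Het 3, against 6.41, 6.58 and 8.29 in WT. The members of these pairs thus lay below WT by unequal factors in Het 1, which no common scaling of that library alters. By contrast the ratio of Tomm40 to Tomm40l was 1.16, 1.25 and 1.07 in Het and 1.23, 1.33 and 1.28 in WT.

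Differences were also set against transcript length and level. Each Het library was compared with the WT mean, and each WT library with the mean of the other WT libraries. Across the 35 members, Spearman's rho between this log2 difference and transcript length was -0.38, 0.21 and 0.44 in Het 1, 2 and 3. It was 0.34, -0.37 and 0.03 in WT 1, 2 and 3. Values of that size thus occurred within WT too. Over 10985 genes tested it was -0.05, 0.21 and 0.32 in Het and 0.19, -0.17 and 0.00 in WT. With the mean level in WT, rho over the members was -0.62, 0.15 and 0.18 in Het 1, 2 and 3, and over all genes -0.37, -0.12 and -0.15. In WT 1, 2 and 3 it was -0.00, -0.28 and 0.47 over the members and 0.09, -0.12 and 0.06 over all genes. The WT level enters both quantities of this rho, so they are not independent. These correlations are across genes of the same libraries and describe them only. In the first of 10 length bins, transcripts of up to 975 bases, the median gene was at -0.20, -0.14 and -0.25 in Het 1, 2 and 3. Tomm5, Timm10, Timm8b, Tomm6 and Pam16 belong to that bin. When values were centred on genes of like length, an alternative chosen after seeing the data, 11 members lay lower without Het 1 with an unadjusted limma p under 0.05, against 6.16% of all genes, and 1 lay higher, against 4.6%. The median difference of all 35 members was then -0.14. In the shortest bin the differences without Het 1 were nearer to 0 than uncentred. Timm8b was at -0.18 against -0.34, Tomm6 at -0.14 against -0.31, Pam16 at -0.07 against -0.23 and Tomm5 at -0.34 against -0.50.

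**Figure D4:**
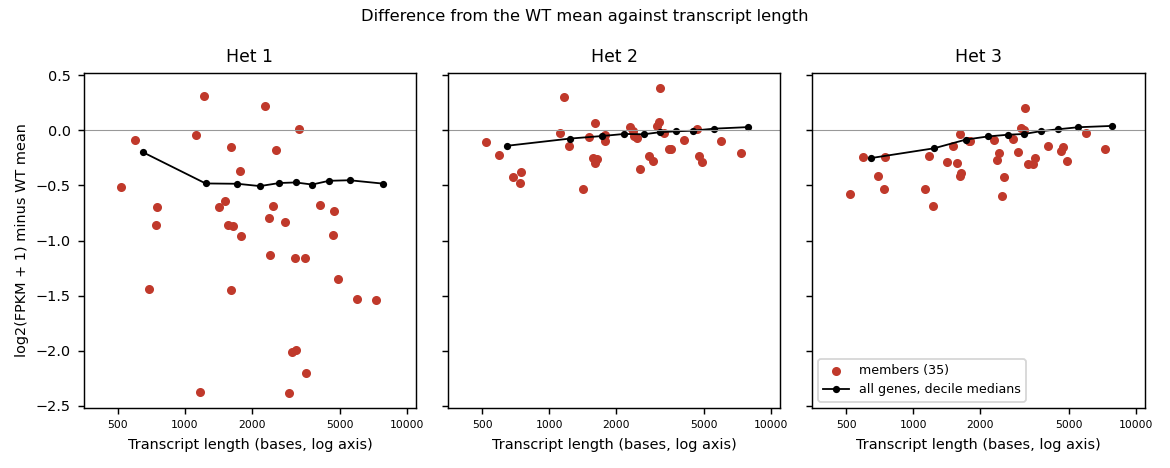
Difference from the WT mean (log2(FPKM + 1)) against transcript length (log axis) for the 35 members (red) in Het 1, 2 and 3, with the median of all genes tested in each of 10 length bins (black). The black line lies between -0.20 and -0.51 in Het 1 and rises with length in Het 2 and Het 3, from -0.14 and -0.25 in the shortest bin.

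Scaling changed how many members stood apart. The members' median log2 difference was -0.24 with median-ratio scaling, -0.23 with quantile normalization, -0.41 with a common sum without the mitochondrial genome and -0.57 with a common sum over all genes. Without Het 1 it was -0.15 with median-ratio scaling and -0.14 with quantile normalization, both chosen after seeing the data. With median-ratio scaling or quantile normalization, 10 of 35 members (28.6%) were lower in every Het heart, against 6.83% and 7.16% of all genes. The 10 were the same under both: Tomm5, Tomm20, Tomm22, Tomm40, Tomm40l, Mtx2, Chchd4, Timm10, Timm17a and Grpel1. Scaled to a common sum without the mitochondrial genome, 12 members stood apart (10.9% of all genes), and scaled to a common sum over all genes, 20 did (20.8% of all genes). No member was higher in every Het heart under any of these scalings. Leaving out Het 2 left 5 members lower with an unadjusted limma p under 0.05, against 4.38% of all genes, and 0 higher, against 0.793%. Leaving out Het 3, the heart with lung transcripts, left 3 lower, against 3.6%, and 0 higher, against 1.65%. Median-ratio scaling without Het 1, chosen after seeing the data, left 8 lower, against 6.66%, and 1 higher, against 5.02%.

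The import genes were set beside 3 other lists of nuclear mitochondrial genes, by medians and counts. Relative to the median gene, nuclear complex I subunits (40 tested) had medians of 0.38, -0.12 and -0.38 in Het 1, 2 and 3. Mitochondrial ribosomal proteins (81 tested) had -0.24, -0.11 and -0.21, and mitochondrial solute carriers (37 tested) had -0.36, 0.06 and 0.05. The import genes, at -0.40, -0.08 and -0.20, lay nearest to the ribosomal proteins in Het 2 and Het 3. Every Het heart was lower than every WT heart in 42.9% of import genes, 27.5% of complex I subunits, 60.5% of ribosomal proteins and 10.8% of solute carriers, against 15.6% of all genes tested. Without Het 1 these shares were 48.6%, 55.0%, 66.7% and 13.5%, against 21.8% of all genes, so complex I then lay above the import genes. None of these lists had a member with an adjusted p under 0.05 in limma's test.

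**Figure D5:**
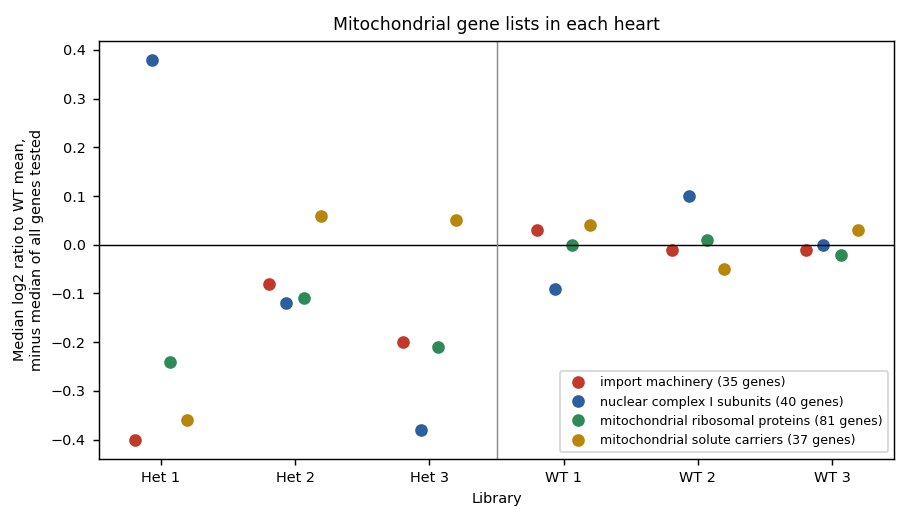
Median log2 ratio to the WT mean, minus the median of all genes tested, of 4 nuclear mitochondrial gene lists (colours) in each library (x axis). The import genes are at -0.40, -0.08 and -0.20 in Het 1, 2 and 3, and the WT libraries lie between -0.09 and 0.10 for all lists. Each WT library is itself part of the WT mean, which draws its values closer to that mean.

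A wider list of 49 genes that work next to the import machinery, such as chaperones, peptidases, porins and cristae proteins, was read from the same test. All 49 were tested, 0 passed over all genes in either direction, and 2 lay lower with an unadjusted limma p under 0.05, against 3.08% of all genes. Their median log2 difference was -0.37, and -0.07 without Het 1, and 44 of the 49 were lowest in Het 1. Relative to the median gene, their medians were -0.51, -0.00 and -0.04 in Het 1, 2 and 3. With all libraries 49 of 49 were below 0, against 76.6% of all genes, and without Het 1 31 of 49 were, against 58.3%. Without Het 1, 11 of 49 (22.4%) lay lower with an unadjusted limma p under 0.05, against 9.41% of all genes, and 0 lay higher, against 2.97%. Hspe1, the small partner of the Hsp60 chaperonin that folds imported proteins, stood at 10.02, 12.2 and 10.8 FPKM in Het, against 19.0, 17.6 and 16.6 FPKM in WT. Het 1 was here close to the other Het hearts, and the log2 difference was -0.64 (SE 0.18, unadjusted limma p 0.0101, adjusted p 0.753). Its partner Hspd1 overlapped, at 26.3, 106 and 113 FPKM in the Het hearts and 128, 103 and 119 FPKM in WT.

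Mtx3, a metaxin related to Mtx1, stood at 1.35, 2.37 and 2.34 FPKM in Het, against 3.40, 2.83 and 3.04 FPKM in WT (unadjusted limma p 0.042). Immp1l, a peptidase of the inner membrane, stood at 15.4, 27.4 and 20.1 FPKM in Het, against 28.7, 29.8 and 31.0 FPKM in WT. The porins Vdac2 and Vdac3 were also lower in every Het heart, at 26.8 to 58.5 and 15.6 to 33.0 FPKM in Het, against 64.6 to 70.3 and 37.0 to 38.8 FPKM in WT. Dnajc15 and Armc1 did not overlap either, while Dnajc11 did. So did the porin Vdac1, at 22.7, 246 and 219 FPKM in Het 1, 2 and 3, against 245, 195 and 246 FPKM in WT 1, 2 and 3. The log2 difference of Vdac1 was 0.03 without Het 1. Over the whole wider list the groups were apart and lower in Het for 16 of 49 genes (32.7%), against 15.6% of all genes, and without Het 1 for 18 (36.7%), against 21.8%.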

How the data were processed

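Poly(A) RNA from 6 hearts was sequenced with a dUTP second-strand protocol, per the labels' protocols. Tools named in the submitters' processing notes, with no role given, are HISAT2 2.0.4, cutadapt 1.9, edgeR, DESeq2 and StringTie 1.3.4d, and the build is mm10. The authors deposited FPKM for 14956 genes, a unit inferred from the values, with a p-value, an adjusted p (q-value), a fold (ratio), a log2 fold change and a −log10 p for Het against WT, per the file headers. The table holds no counts, so limma took the place of a count test, as planned. The sources used here do not say whether counting used strand.

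The test took the 11096 genes averaging 1 FPKM or more, on log2(FPKM + 1), which understates changes of low genes, with limma 3.58.1 in R 4.3.3 (trend and robust variance, Benjamini-Hochberg adjustment, threshold 0.05). The script was tested on simulated data. Members, lists and tests were chosen with earlier results of these data known. Values in every library are given for members whose groups did not overlap or that had the 12 smallest p, and others by range. Coordinates, exon overlaps and transcript lengths (longest coding transcript) come from GENCODE M21 on GRCm38, where 97.6% of gene identifiers were found. The authors' annotation may differ. Nothing says whether mice shared litters. Limma's p-values set each group difference against the spread between these 6 mice, moderated by that of all genes tested. Figures were drawn with matplotlib 3.10.9.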

Additional observations from a re-analysis of the deposited data

How the results depend on the processing

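No member passed over all genes under any alternative, including a threshold of 0.1. The lowest adjusted limma p was 0.129, for Tomm5 with library weights, which gave Het 1 a weight of 0.0486 against 1.51 to 2.55 for the others. Genes called in all, 2 as reported, numbered 1 with median-ratio scaling, quantile normalization, the replicate block or length centring, and 22 with library weights. Leaving out single libraries gave 1 to 38, namely 8, 25 and 38 without Het 1, 2 and 3 and 1 without each WT heart in turn. Members lower with an unadjusted p under 0.05, 2 as reported, numbered 1 with the common sum without the mitochondrial genome (2.1% of all genes), 0 with the replicate block (1.71%), 4 without trend and robust variance (3.51%), and 10 with library weights (1111 of 11096 genes). Leaving out single libraries gave 0 to 10, namely 10, 5 and 3 without Het 1, 2 and 3 (9.41%, 4.38% and 3.6% of all genes) and 0, 1 and 1 without WT 1, 2 and 3 (1.21%, 1.24% and 1.59%). The number higher was 0 to 1. Chosen after seeing the data, and without Het 1, median-ratio scaling, quantile normalization and length centring called 7, 9 and 8 genes, with 8, 7 and 11 members lower (6.66%, 6.76% and 6.16% of all genes) and 1 higher. With all libraries, length centring left 1 member lower (1.8%).

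Otub1 passed with library weights (-1.07, adjusted limma p 0.00385) and without Het 1 (-1.06, adjusted limma p 0.0129), and at -1.02, -1.02 and -1.01 under those 3 settings without Het 1. Leaving out single libraries gave -1.26 to -1.06. Of 688 member values under alternatives 651 kept their direction. The 37 others follow, as log2 differences. Timm29 was 0.26 with library weights, and 0.29, 0.33, 0.35 and 0.31 without Het 1 (as such, then in the order above). Pmpca was 0.00, then 0.04, 0.09, 0.12 and 0.07, and without Het 1, under the same 4 settings, Pmpcb was 0.02, 0.07, 0.10 and 0.08, Hspa9 0.03, 0.08, 0.12 and 0.06, and Timm23 0.04, 0.08, 0.12 and 0.14. Timm44 was 0.00 with quantile normalization without Het 1. Tomm34 was -0.10 with the common sum over all genes, -0.03 with weights, -0.03 without Het 1, -0.01 without WT 2 and -0.01 with quantile normalization without Het 1. Timm13 was 0.05, 0.03 and 0.05 with median-ratio scaling, quantile normalization and length centring, and 0.09 without Het 3. Timm10b was 0.07, 0.04 and 0.06 under those scalings, Pam16 0.02 with median-ratio scaling and Tomm7 0.02 with length centring. Without Het 1 the log2 ratios turned to -0.12 for Mtx1 over Mtx2, 0.00 for Timm8a1 over Timm13, 0.14 for Timm23 over Timm50 and 0.10 for Hspa9 over Timm44. Leaving out single libraries gave -0.90 to 0.29 for Timm29, -0.58 to 0.04 for Pmpca, -0.74 to 0.02 for Pmpcb, -0.99 to 0.03 for Hspa9, -1.30 to 0.04 for Timm23, -0.41 to 0.09 for Timm13 and -0.03 to 0.12 for Tomm34. For the ratios it gave -0.12 to 1.11 (Mtx1 over Mtx2), -0.70 to 0.00 (Timm8a1 over Timm13), -0.92 to 0.14 (Timm23 over Timm50) and -0.48 to 0.10 (Hspa9 over Timm44). The cause was not tested. Deviations from the group mean correlated at -0.197, -0.435 and 0.211 between same-numbered mice, and at 0.507 between Het 1 and WT 2. With means of 3 mice and Het 1 apart, these values cannot decide whether mice were paired. Depth is unknown, and 3 mice a group limit the precision.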
